A study of Mus musculus with 23 samples.

Results

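A set of 9 genes that textbooks use to mark fibroblasts and other mesenchymal cells, *Pdgfra*, *Pdgfrb*, *Vim*, *Twist1*, *Prrx1*, *Dcn*, *Lum*, *Postn* and *Fn1*, was followed through RNA-seq libraries of sorted fetal thymic epithelial cells (TECs). The 9 genes were taken by symbol from the 50123 genes of the count table, collagens being left out, and all 9 were among the 19140 genes that passed the expression filter. They were chosen by their measured levels, mesenchymal transcripts having tended higher in libraries with active Notch (NICD) than in controls, so values in that comparison are given as a description without a test.

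The 23 libraries held 100 sorted cells each and fell into 7 groups of thymic cells from C57BL/6 embryos. Control and *Rbpj* conditional knockout (cKO) cells were collected as PLET1+ cells at E12.5 and as PLET1+ and PLET1- cells at E14.5, with 3 libraries per group, and NICD cells as PLET1+ cells at E14.5, with 5 libraries. PLET1 is a surface protein of early thymic epithelial progenitors, and cells were sorted on the epithelial protein EPCAM and on PLET1. Controls are labelled wild type, and the study's methods describe them as littermates of the cKO (Foxn1Cre RbpjFL/FL), which lacks the DNA-binding partner of activated Notch wherever Foxn1Cre was active. By the cross described there, controls can carry floxed *Rbpj* alleles or Foxn1Cre, and the labels do not give the alleles of each control library. The NICD embryos (Foxn1Cre Rosa26FL-STOP-FL-NICD-IRES-EGFP) express the intracellular domain of Notch1 from the Rosa26 locus after the same Cre. Foxn1Cre drives recombination in TECs. The NICD cells came from 1 litter and were sorted in another laboratory as a batch of their own, so genotype, litter, laboratory and batch cannot be told apart in any NICD value. Control and cKO libraries of each age came from 2 batches. Labels do not say which libraries came from separate embryos, and p-values then measure only the spread between these libraries.

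The fetal thymus is an epithelial organ wrapped and entered by mesenchyme derived largely from the neural crest. This mesenchyme responds to platelet-derived growth factors (PDGFs) through the receptors encoded by *Pdgfra* and *Pdgfrb*, and it lays down a matrix in which decorin (*Dcn*), lumican (*Lum*), periostin (*Postn*) and fibronectin (*Fn1*) are found. Vimentin (*Vim*) and fibronectin are also made by embryonic epithelia, so these genes mark mesenchyme less strictly than the others do.

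Libraries held between 20053241 and 92699969 counts on genes, and NICD libraries at least 63587152. Detection was read as more than 3 counts in a library, and 3 counts corresponded to 0.0378 to 0.17 CPM (counts per 1000000 on genes, with the library factors of edgeR's TMM method), a limit that covers counting error only because amplified reads are not independent molecules. *Epcam* was at 368 to 945 CPM in all 23 libraries. *Rbpj* was at 18.4 to 20.4 CPM in E14.5 PLET1+ controls against 0.061, 10.4 and 6.95 CPM in the cKO, but at 9.48, 16.2 and 2.09 CPM in E12.5 cKO against 15.1, 20.1 and 37.9 CPM in controls, so that these groups overlapped. The first E14.5 PLET1+ cKO library stood apart, with 2 *Rbpj* counts, the lowest *Foxn1* level of all libraries, 12.6 CPM, and the highest *Ptprc* level, 13.4 CPM, *Ptprc* encoding the leukocyte protein CD45. The 10 haematopoietic genes, *Ptprc* among them, summed to 19.5 CPM there, within the 17.5 to 24.8 CPM of E14.5 PLET1+ controls. Markers of other cells differed by type and library. *Pecam1* of endothelium and *Sox10* of neural crest and glia reached at most 3.56 and 1.41 CPM, whereas the mural genes *Rgs5* and *Acta2* reached 179 and 61.1 CPM.

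The mesenchymal genes were detected unevenly. Between 3 and 9 of the 9 genes had more than 3 counts in a library, and the median was 6. The lowest number, 3, belonged to the first E14.5 PLET1+ cKO library, which also had the fewest genes with a count of all 23 libraries, 16229. The highest number, 9, belonged to the second control and the second cKO library of PLET1- cells. By group the median was 8 in both PLET1- groups, 7 in NICD, 6 in E12.5 controls and E14.5 PLET1+ cKO, and 4 in E12.5 cKO and E14.5 PLET1+ controls. At 1 CPM or more, a level that does not move with depth as 3 counts do, the median was 7 in both PLET1- groups, 6 in NICD, 5 for controls of E12.5, 4 for their cKO and for E14.5 PLET1+ controls, and 3 for E14.5 PLET1+ cKO. *Vim* and *Fn1* passed 3 counts in all 23 libraries, *Dcn* and *Postn* in 19, *Lum* in 17, *Twist1* in 15, *Pdgfra* in 13, *Prrx1* in 10 and *Pdgfrb* in 7. Per kilobase of exon (RPKM, CPM divided by gene length), the median level over the 23 libraries was 49.8 for *Fn1*, 5.78 for *Vim* and 5.54 for *Dcn*, and below 1 for the others, down to 0 for *Pdgfrb* and *Prrx1*. A few libraries carried most of the signal. The top 3 libraries held 84.3% of the summed CPM of *Pdgfrb*, 76.3% of *Dcn*, 75.4% of *Prrx1*, 66.4% of *Postn* and 62.9% of *Lum*, but 32.7% of *Vim* and 23.9% of *Fn1*. In bulk libraries of this kind, fewer cells of a type and less RNA per cell cannot be told apart.

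**Figure D1:**
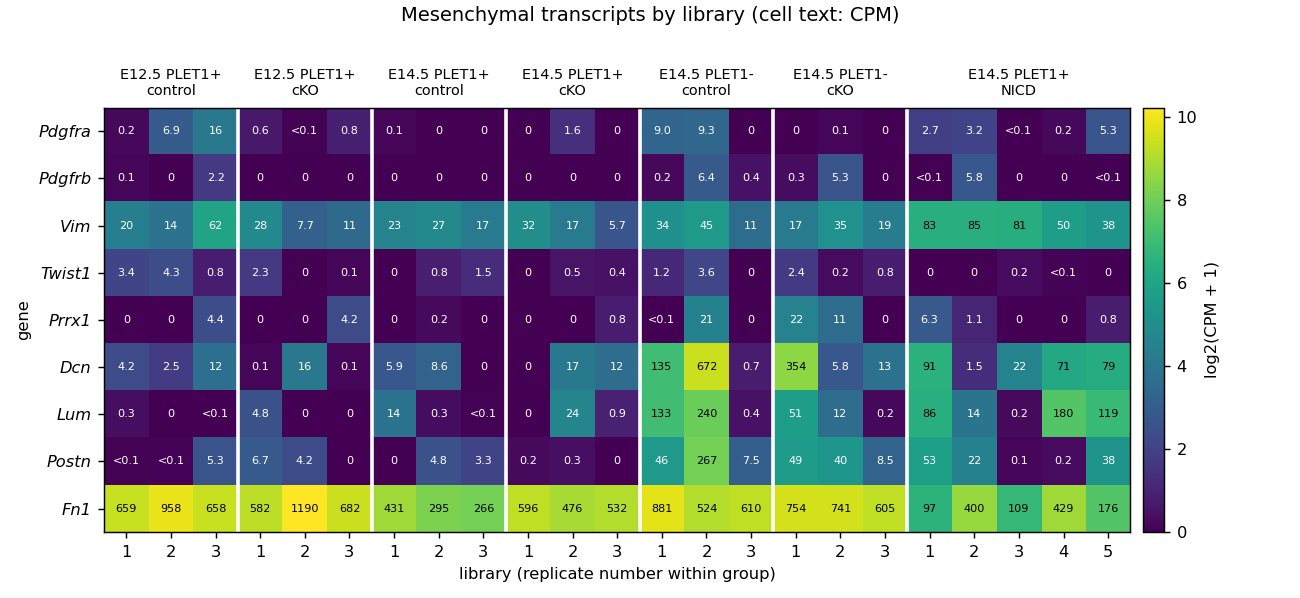
Heat map of the 9 mesenchymal genes (rows) in the 23 libraries (columns, numbered by replicate within each group), coloured by log2(CPM + 1), with the CPM printed in each cell. *Fn1* and *Vim* are present in every column, whereas *Dcn*, *Lum* and *Postn* are bright in single libraries, most of all in the second PLET1- control, where they reach 672, 240 and 267 CPM.

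The PDGF receptors were sparse. *Pdgfra* (ENSMUSG00000029231.15; GRCm38 chromosome 5, 75152292 to 75198215, plus strand) encodes the receptor by which PDGF-A reaches mesenchymal cells. It was at 0.166, 6.93 and 16 CPM in replicates 1, 2 and 3 of E12.5 controls and at 0.611, 0.0457 and 0.848 CPM in E12.5 cKO. E14.5 PLET1+ libraries had 0.109, 0 and 0 CPM in controls and at 0, 1.62 and 0 CPM in the cKO. PLET1- controls had 8.98, 9.33 and 0 CPM and PLET1- cKO 0, 0.118 and 0 CPM. The NICD libraries had 2.68, 3.2, 0.0138, 0.177 and 5.33 CPM. The gene was therefore present above 1 CPM in 8 libraries of 4 groups and at or below 0.177 CPM in other libraries of each of these groups, and groups with a high mean, such as E12.5 controls (7.68 ± 7.92 CPM, SD, n = 3) and PLET1- controls (6.11 ± 5.29 CPM, SD, n = 3), did not differ from their neighbours in the order beyond their spread. Its exons overlap 3 other annotated genes over 652 bases, and counting without strand dropped reads that fell on both.

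*Pdgfrb* (ENSMUSG00000024620.11), the PDGF-B receptor of mural cells and fibroblasts, had no count in any E12.5 cKO, E14.5 PLET1+ control or E14.5 PLET1+ cKO library, which allows up to 0.0545 to 0.17 CPM. Above 1 CPM it was found in 4 libraries, at 2.23 CPM in the third E12.5 control, 6.37 CPM in the second PLET1- control, 5.26 CPM in the second PLET1- cKO and 5.78 CPM in the second NICD library. Transcripts of mural cells, the smooth muscle-like cells that coat vessels, differed in whether they were high in the same libraries. *Abcc9*, a potassium channel subunit of pericytes, was at 34.3, 17.4 and 20.1 CPM in the second PLET1- control, PLET1- cKO and NICD libraries. It was also at 36.6 CPM in the fifth NICD library, where *Pdgfrb* was at 0.0126 CPM, so the pair did not always occur together. In the second PLET1- control, PLET1- cKO and NICD libraries *Rgs5* was at 179, 80 and 32.9 CPM, the last being the lowest NICD value. *Acta2* was at 5.96, 3.73 and 1.21 CPM there, and at 61.1 CPM in the fourth NICD library, where *Pdgfrb* was at 0.

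*Vim* (ENSMUSG00000026728.9; chromosome 2, 13573927 to 13582826, plus strand), which encodes the intermediate filament of mesenchymal and many embryonic cells, was present throughout. Controls had 19.6, 13.8 and 61.7 CPM at E12.5, 23, 27.4 and 17.1 CPM in E14.5 PLET1+ cells and 34.3, 45.4 and 11.1 CPM in PLET1- cells. The cKO had 28.3, 7.68 and 10.6 CPM at E12.5, 31.8, 17 and 5.69 CPM in E14.5 PLET1+ cells and 17.2, 34.7 and 18.5 CPM in PLET1- cells. These 6 groups overlapped, with means between 15.5 ± 11.1 and 31.7 ± 26.2 CPM (SD, n = 3). NICD libraries had 82.7, 85.4, 81, 50.5 and 38.4 CPM, a mean of 67.6 ± 21.6 CPM (SD, n = 5).

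Both transcription factors were low. *Twist1* (ENSMUSG00000035799.5; chromosome 12, 33957671 to 33959817, plus strand) encodes a basic helix-loop-helix factor of cranial mesenchyme and of epithelial cells that become mesenchymal. It was highest in E12.5 controls, at 3.37, 4.33 and 0.76 CPM, against 2.28, 0 and 0.113 CPM in E12.5 cKO. At E14.5 it reached 1.47 CPM in PLET1+ controls, 0.467 CPM in PLET1+ cKO, 3.57 CPM in controls sorted as PLET1- and 2.36 CPM in their cKO counterparts. NICD libraries had 0, 0, 0.234, 0.0682 and 0 CPM, that is, at most 17 counts in a library. *Twist1* had the lowest mean of the members in NICD and the letters TATAAA in its promoter, which is printed for that reason. Shown are the 250 bases before the transcription start as RefSeq gives it (GRCm38.p6, chromosome 12, plus strand, chr12:33957421-33957670). The letters TATAAA, in capitals, begin 126 bases before the start.
Twist1: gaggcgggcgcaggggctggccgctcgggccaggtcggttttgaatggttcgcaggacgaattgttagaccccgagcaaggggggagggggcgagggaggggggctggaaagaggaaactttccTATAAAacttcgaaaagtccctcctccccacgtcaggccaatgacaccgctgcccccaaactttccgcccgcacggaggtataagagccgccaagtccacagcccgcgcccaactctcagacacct

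Promoter windows of the same length were given for *Pdgfra*, *Vim*, *Twist1*, *Prrx1* and *Postn*, and none was given for the other members, *Pdgfrb*, *Dcn*, *Lum* and *Fn1*. The letters TGGGAA, the core that RBPJ binds, were searched on both strands and found in none of the 5 genes and in 21.6% of all 32851 RefSeq promoters. TATAAA was found in *Twist1*, *Vim* and *Postn* and in 12.4% of all promoters. A match describes letters in these windows and is no evidence of binding.

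*Prrx1* (ENSMUSG00000026586.16; chromosome 1, 163245119 to 163313710, minus strand), a homeobox factor of limb and craniofacial mesenchyme, was at 0 in 12 libraries. Levels over 1 CPM occurred in 7 libraries, namely the third E12.5 control (4.38 CPM), the third E12.5 cKO (4.24 CPM), the second PLET1- control (21.4 CPM), the first and second PLET1- cKO (21.9 and 11.2 CPM) and the first and second NICD libraries (6.32 and 1.1 CPM). No E14.5 PLET1+ control or cKO library reached that level.

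The proteoglycan genes *Dcn* (ENSMUSG00000019929.15, 97479500 to 97518162) and *Lum* (ENSMUSG00000036446.4, 97565501 to 97572703) are neighbours on the plus strand of chromosome 10 and encode decorin and lumican, leucine-rich proteins that bind collagen fibrils. *Dcn* was at 4.2, 2.47 and 12.4 CPM in E12.5 controls, 0.102, 16.2 and 0.113 CPM in E12.5 cKO, 5.93, 8.64 and 0 CPM in E14.5 PLET1+ controls and 0, 16.6 and 11.5 CPM in E14.5 PLET1+ cKO. In PLET1- cells it was at 135, 672 and 0.703 CPM in controls and at 354, 5.78 and 12.9 CPM in the cKO. The NICD libraries had 90.5, 1.54, 22.5, 71 and 78.6 CPM. All 12 libraries of E12.5 and E14.5 PLET1+ control or cKO cells thus lay at or below 16.6 CPM, and 6 of the 11 remaining libraries lay above 50 CPM.

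*Lum* followed the same libraries. It was at 0 to 4.79 CPM at E12.5, at 13.9, 0.272 and 0.0475 CPM in E14.5 PLET1+ controls and at 0, 24.1 and 0.925 CPM in E14.5 PLET1+ cKO. PLET1- controls had 133, 240 and 0.399 CPM, PLET1- cKO 50.9, 11.6 and 0.178 CPM, and NICD libraries 85.9, 14.2, 0.193, 180 and 119 CPM. Each of *Dcn* and *Lum* reached 50 CPM in 6 libraries, and these were the same 6, the first and second PLET1- controls, the first PLET1- cKO and NICD replicates 1, 4 and 5. At 10 CPM or more, 7 libraries held both, of 12 with *Dcn* and 10 with *Lum*. Over the 23 libraries, which share amplification and depth differences, Spearman's rho between both genes was 0.64.

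*Postn* (ENSMUSG00000027750.16; chromosome 3, 54361109 to 54391037, plus strand) encodes periostin, a secreted protein of collagen-rich connective tissue. It was at 0.0416, 0.0817 and 5.29 CPM in E12.5 controls, 6.66, 4.16 and 0 CPM in E12.5 cKO, 0, 4.85 and 3.27 CPM in E14.5 PLET1+ controls and 0.214, 0.344 and 0 CPM in E14.5 PLET1+ cKO. PLET1- controls had 45.5, 267 and 7.54 CPM and PLET1- cKO 48.8, 40.4 and 8.46 CPM. NICD libraries split between 52.9, 21.5 and 38.1 CPM in replicates 1, 2 and 5 and 0.11 and 0.246 CPM in replicates 3 and 4. *Postn* was the member that best separated PLET1- from PLET1+ libraries, so its promoter is shown (RefSeq, GRCm38.p6, chromosome 3, plus strand, chr3:54360857-54361106), 250 bases before the start with TATAAA in capitals, which begins 26 bases before it.
Postn: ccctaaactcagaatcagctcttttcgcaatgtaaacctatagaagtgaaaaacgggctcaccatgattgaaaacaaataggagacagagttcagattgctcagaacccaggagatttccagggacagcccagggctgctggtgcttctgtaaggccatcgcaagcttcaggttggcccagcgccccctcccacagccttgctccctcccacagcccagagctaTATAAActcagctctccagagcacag

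*Fn1* (ENSMUSG00000026193.15; chromosome 1, 71585520 to 71653200, minus strand), which encodes the fibronectin on which cells adhere and migrate, had the highest mean RPKM of the members in 5 of the 7 groups, between 28.3 and 70.01. *Dcn* was higher in PLET1- controls, at a mean of 129.3 RPKM against 57.5 RPKM, and *Lum* in NICD, at 38.5 RPKM against 20.7 RPKM. By library *Fn1* was at 659, 958 and 658 CPM in E12.5 controls, 582, 1190.4 and 682 CPM in cKO of that age, 431, 295 and 266 CPM in E14.5 PLET1+ controls and 596, 476 and 532 CPM in E14.5 PLET1+ cKO. Levels in PLET1- controls were 881, 524 and 610 CPM, and those in the cKO 754, 741 and 605 CPM. NICD libraries had 96.7, 400.5, 109, 429 and 176 CPM. By mean level the order was E12.5 cKO (818 ± 326 CPM, SD, n = 3), E12.5 control (758 ± 173), PLET1- cKO (700.1 ± 82.6), PLET1- control (672 ± 186), E14.5 PLET1+ cKO (535 ± 60.4), E14.5 PLET1+ control (331 ± 88.1) and NICD (242 ± 161, n = 5), and of the neighbours in this order only E14.5 PLET1+ cKO and control were separated, without overlap. *Fn1* thus had its lowest mean in the group in which *Vim* had its highest. Its exons overlap *Apol7d* on the other strand over 292 bases.

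The PLET1 fractions of E14.5 were compared to ask whether mesenchymal transcripts differed between progenitor-marked and other TECs of the same age and batches. The labels do not say whether both fractions came from the same thymi. All 9 genes had lower fitted levels in PLET1+ than in PLET1- cells. For *Pdgfra* and *Pdgfrb*, however, a group held at most 3 counts in every library. *Pdgfra* was lower in the PLET1+ library of only 2 of 6 same-numbered pairs. None of the 9 was called by edgeR's quasi-likelihood test at an adjusted p of 0.05 (control and cKO averaged, 6 libraries against 6), where 0% of the 19140 genes tested were called. Unadjusted p-values were under 0.05 for 4 members, *Pdgfrb*, *Dcn*, *Postn* and *Fn1*, and for 860 of all genes, or 4.49%. The median log2 fold change of the 7 members with more than 3 counts in a library of each group was -2.08, against 0.00153 over all genes tested. *Postn* averaged 1.45 ± 2.09 CPM in PLET1+ and 69.7 ± 98.5 CPM in PLET1- libraries (SD, n = 6), a log2 fold change of -5.87 (SE 1.73, adjusted p = 1 from edgeR). All 6 PLET1- libraries, at 7.54 to 267 CPM, lay above all 6 PLET1+ libraries, at 0 to 4.85 CPM. Of all genes tested, 0.277% lay lower in every PLET1+ library in this way and 0.225% higher, and of the 9 members *Postn* was the one that did.

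The other matrix genes overlapped between the fractions. *Dcn* averaged 7.11 ± 6.54 CPM in PLET1+ and 197 ± 270 CPM in PLET1- libraries (SD, n = 6; log2 fold change -3.65, SE 1.64), *Lum* 6.54 ± 10.2 against 72.8 ± 96.4 CPM (-2.08, SE 1.57) and *Fn1* 433 ± 131 against 686 ± 130 CPM (-0.70, SE 0.33), edgeR giving adjusted p = 1 for all 3. *Fn1* differed least in size of the 4 matrix genes, and like *Postn* it was lower in the PLET1+ library of all 6 same-numbered pairs. Its fractions overlapped through 1 PLET1- library, the second control at 524 CPM, and it was separated without overlap when libraries were scaled by their totals alone. Within the first E14.5 batch (4 libraries against 4) the difference in mean log2(CPM + 1) was -5.34 for *Postn*, -4.38 for *Dcn*, -3.86 for *Lum* and -0.71 for *Fn1*. In the second batch (2 against 2) it was -2.12 for *Postn* and -0.69 for *Fn1*, but -0.46 for *Dcn* and 0.15 for *Lum*. The high proteoglycan levels of PLET1- cells thus came from libraries of the first batch, while *Postn* and *Fn1* were lower in PLET1+ cells in both. DESeq2 called *Postn* (adjusted p = 0.0044), along with 1.09% of genes, and edgeR without the expression filter called *Postn* (adjusted p = 3.7e-08) and *Dcn* (adjusted p = 1.4e-05), along with 0.178% of genes. Limma-voom called no member, with 3 unadjusted p-values under 0.05.

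**Figure D2:**
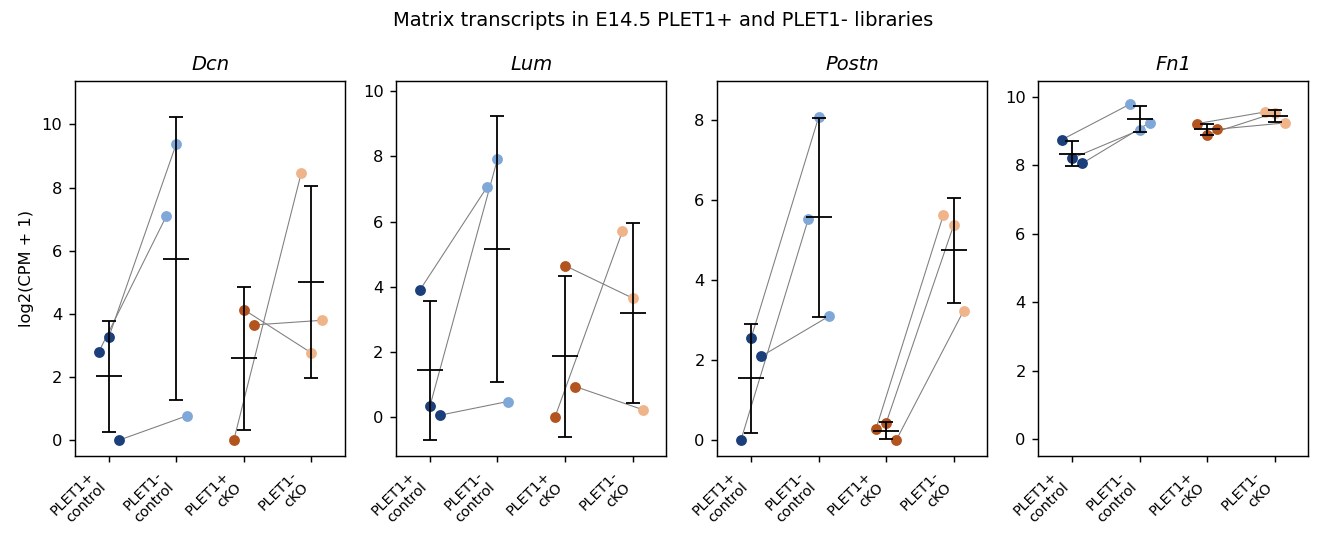
Level of 4 matrix genes in E14.5 libraries as log2(CPM + 1), by PLET1 fraction and genotype, with 1 point per library, the mean and SD in black and grey lines joining libraries of the same replicate number. *Postn* rises along all 6 lines, whereas *Dcn* and *Lum* are high in PLET1- replicates 1 or 2 and low in replicate 3.

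Markers of other cells moved with some of these libraries. The summed level of 9 mural genes ran from 26.7 to 269 CPM for PLET1- controls and from 12.8 to 135 CPM for the PLET1- cKO, against 69.4 to 102 and 26.4 to 43.2 CPM in PLET1+ controls and cKO, and was highest in the second PLET1- control, the library with the most *Dcn*, *Lum*, *Postn* and *Pdgfrb*. *Rgs5* alone was 179 CPM of that highest sum, and in PLET1+ controls it was at 30.4 to 72.9 CPM. *Abcc9*, of the same list, was at most 0.145 CPM in those PLET1+ controls. The 10 endothelial genes summed to at most 15.2 CPM in PLET1- and 16.4 CPM in PLET1+ libraries of control and cKO cells, and the 10 haematopoietic genes to at most 32.3 and 24.8 CPM. The 12 epithelial genes summed to 7943 to 11081 CPM in PLET1- libraries, against 5209 to 7691 CPM in PLET1+ libraries. Within PLET1- cells the 3 libraries rich in *Dcn* and *Lum* had the lowest epithelial sums, 8830 and 9968 CPM in the first and second controls and 7943 CPM in the first cKO, against 10255 to 11081 CPM in the other 3. In the same order *Krt8*, a gene of this list, was at 2989, 3876 and 2833 CPM, against 4306 to 4792 CPM. *Epcam*, also of the list, showed no such order, at 584, 614 and 572 CPM against 524 to 583 CPM. *Krt8* was lowest in replicate 1 of every E14.5 control and cKO group, PLET1+ cells with little *Dcn* included. Among those, replicate 1 held 2027 CPM of *Krt8* and 5.93 CPM of *Dcn* (control) or 1244 and 0 CPM (cKO). The epithelial sum of PLET1+ controls was instead lowest in replicate 3, at 7071 CPM. Mitochondrial counts made up 7.8 to 9.54% in replicate 1 of these groups, against 4.21 to 5.36% in replicates 2 and 3. What set replicate 1 apart was not tested. The part of other cells in the differences was not tested.

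**Figure D3:**
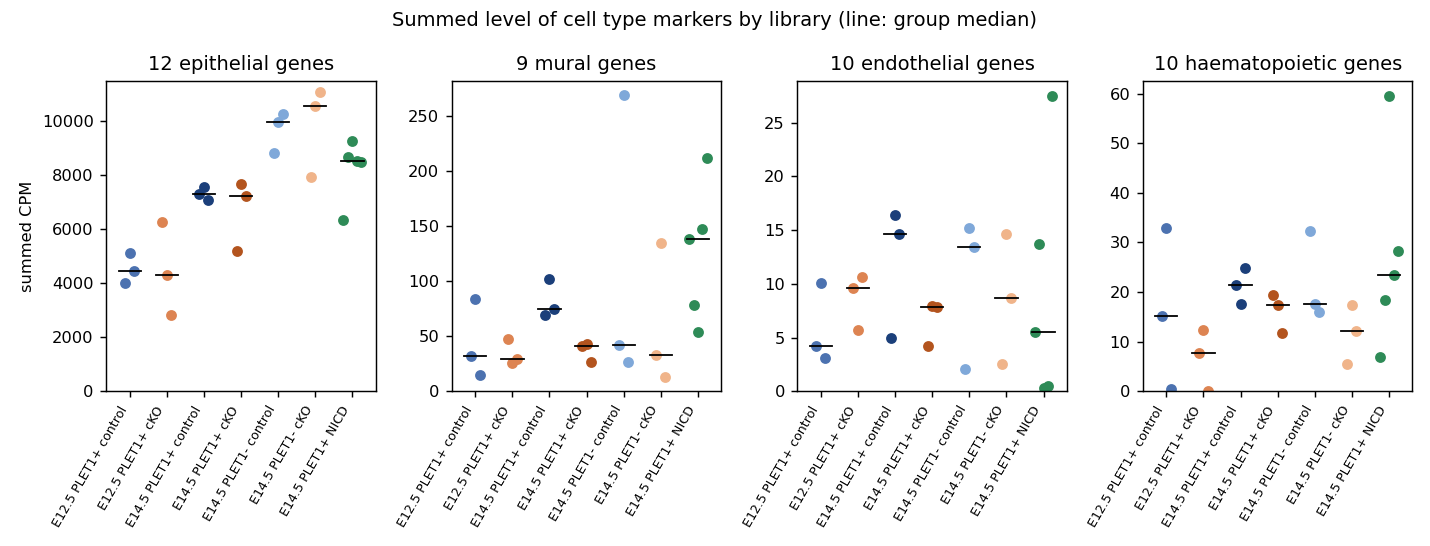
Summed CPM of 4 marker lists in each of the 23 libraries (points), by group, with the group median as a line and a separate linear axis starting at 0 for each list. Mural markers reach 269 CPM in 1 PLET1- control and 212 CPM in 1 NICD library, while endothelial markers stay at or below 27.5 CPM.

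The ages were compared in PLET1+ cells to follow these transcripts from the progenitor stage on. Here 5.14% of the genes were called and the median gene was 0.23 higher at E14.5 on the log2 scale, but no member was called by edgeR, 3 having an unadjusted p under 0.05 (4281 of all genes, or 22.4%). *Fn1* averaged 788 ± 236 CPM at E12.5 and 433 ± 131 CPM at E14.5 (SD, n = 6), with a log2 fold change of -0.90 (SE 0.33, adjusted p = 0.12 from edgeR), and 1 of 6 libraries of E14.5 lay above the lowest of E12.5. *Pdgfra* averaged 4.09 ± 6.37 CPM at E12.5 and 0.288 ± 0.654 CPM at E14.5 (adjusted p = 0.091 from edgeR), and *Lum* 0.85 ± 1.93 and 6.54 ± 10.2 CPM (log2 fold change 4.16, SE 1.77, adjusted p = 0.18). *Vim*, at 23.6 ± 20 and 20.3 ± 9.22 CPM, and *Dcn*, at 5.91 ± 6.78 and 7.11 ± 6.54 CPM, differed by less than their spread. Calls depended on the fit. *Pdgfra* was called by DESeq2 (adjusted p = 0.018, 12.9% of genes called), *Fn1* by edgeR without the NICD libraries (adjusted p = 0.022, 6.76% of genes called), and *Pdgfra*, *Lum* and *Fn1* by edgeR without the filter (adjusted p = 0.026, 6.3e-06 and 0.011, 4.98% of genes called), while limma-voom called none, with 2 unadjusted p-values under 0.05. No batch held both ages, so age and batch cannot be told apart.

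Loss of *Rbpj* was examined to see whether the transcripts depended on Notch signalling in the epithelium. Averaged over the 3 populations, 0 of 9 members were called by edgeR, DESeq2 or limma-voom, and 0 had an unadjusted p under 0.05 in each of them, DESeq2 giving an adjusted p for 7. Over all genes edgeR called 0%, limma-voom 0 and DESeq2 202 of 19140. Unadjusted p-values under 0.05 over all genes numbered 697 by edgeR, or 3.64%, 994 by DESeq2 and 636 by limma-voom. *Vim* averaged 19.1 ± 10.5 CPM in the 9 cKO and 28.2 ± 16.5 CPM in the 9 control libraries (log2 fold change -0.47, SE 0.35, adjusted p = 1) and *Fn1* 684 ± 211 and 587 ± 237 CPM (0.29, SE 0.27, adjusted p = 1). For *Prrx1*, *Dcn*, *Lum*, *Postn* and *Twist1* the standard errors of the log2 fold change ran from 1.3 to 2.66. In *Dcn* and *Lum* the fitted fold changes, 0.90 and 1.22, were positive although the mean CPM was lower in the cKO, at 46.3 against 93.6 and at 10.3 against 43.2. The second PLET1- control alone held 672 CPM of *Dcn* and 240 CPM of *Lum*. *Pdgfra* averaged 0.36 ± 0.566 CPM in the cKO and 4.61 ± 5.91 CPM in controls, a difference within the spread of the controls (adjusted p = 1).

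Within single populations no member was called by edgeR either. The share of genes called was 0.0261% at E12.5, 0% in E14.5 PLET1+ cells and 0% in PLET1- cells, and the members with an unadjusted p under 0.05 numbered 0, 0 and 1, the last being *Pdgfra*, at 0.0393 ± 0.0681 CPM in PLET1- cKO and 6.11 ± 5.29 CPM in controls (SD, n = 3). DESeq2 called 0 members in each, with 1 unadjusted p under 0.05 in each, and limma-voom 0, with 0, 0 and 1. Over all genes, in the same order, DESeq2 called 318, 100 and 160 of 19140 and limma-voom 0 in each. By edgeR 3.79%, 2.06% and 2.34% of all genes had an unadjusted p under 0.05. In E14.5 PLET1+ cells all 3 cKO libraries had more *Fn1*, 476 to 596 CPM, than all 3 controls, 266 to 431 CPM (log2 fold change 0.71, SE 0.47, adjusted p = 1 from edgeR). Such separation was seen upwards in 3.07% and downwards in 4.57% of all genes, and *Fn1* was the 1 member of 9 that showed it.

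**Figure D4:**
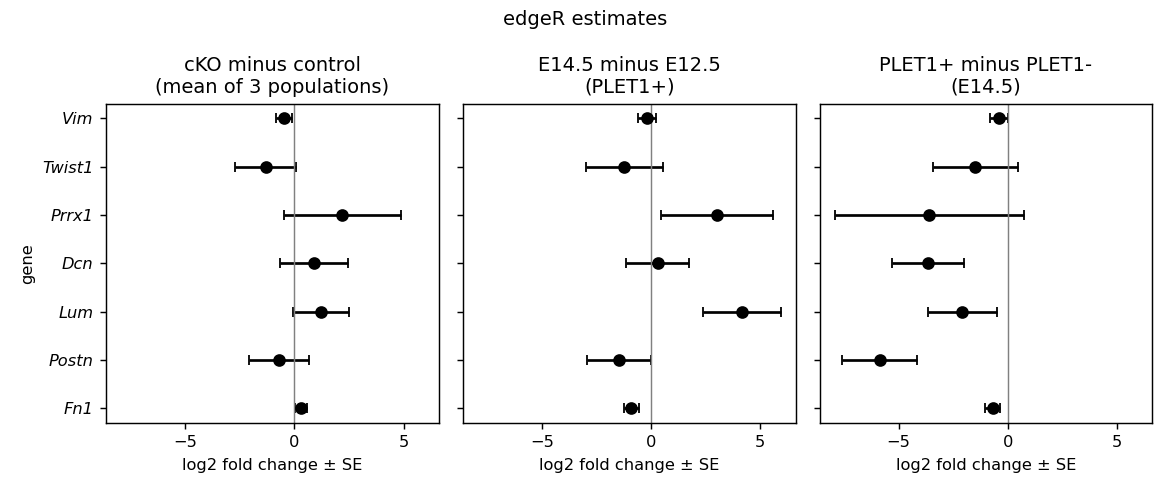
Log2 fold change (points) with its standard error (bars) from edgeR for the 7 genes with more than 3 counts in a library of each group, in the 3 averaged comparisons, the line marking 0. All 7 estimates lie below 0 for PLET1+ minus PLET1- cells, from -0.42 for *Vim* to -5.87 for *Postn*, and none in any panel has an adjusted p under 0.05.

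NICD libraries were set beside the 3 E14.5 PLET1+ controls, the comparison that led to the choice of the genes. The same controls entered the PLET1, age and cKO comparisons. The 9 genes did not move as a block. *Vim* was higher in all 5 NICD libraries, at 38.4 to 85.4 CPM, than in the controls, at 17.1 to 27.4 CPM, a ratio of means of 3, and it was the 1 member of 9 without overlap, where 5.22% of all genes lay higher and 6.52% lower in every NICD library. Mean levels of *Dcn* were 52.8 ± 38.6 CPM in NICD (SD, n = 5) and 4.86 ± 4.42 CPM in controls (SD, n = 3), of *Lum* 79.9 ± 74.7 and 4.74 ± 7.93 CPM, and of *Postn* 22.6 ± 23.3 and 2.71 ± 2.47 CPM. Each of these overlapped with controls through single NICD libraries, *Dcn* through replicate 2, *Lum* through replicate 3 and *Postn* through replicates 3 and 4. *Pdgfra*, at 2.28 ± 2.23 CPM against 0.0364 ± 0.063 CPM, overlapped through replicate 3, and *Pdgfrb* and *Prrx1* were highest in 1 library each, replicates 2 and 1. On the other side, *Fn1* averaged 242 ± 161 CPM in NICD and 331 ± 88.1 CPM in controls, and *Twist1* 0.0605 ± 0.102 and 0.763 ± 0.737 CPM.

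The NICD group was also uneven from library to library. Replicate 1 held *Dcn*, *Lum* and *Postn* together at over 50 CPM, replicate 4 held *Dcn* and *Lum* without *Postn*, replicate 2 held *Postn* and *Pdgfrb* with little *Dcn*, and replicate 3 held none of *Pdgfra*, *Pdgfrb*, *Prrx1*, *Lum* or *Postn* above 1 CPM. The count of members without overlap was 2 without NICD replicate 2 (*Vim* and *Dcn*), and 3 without NICD replicate 3 (*Vim*, *Pdgfra* and *Lum*) or without control replicate 1 (*Vim*, *Pdgfra* and, lower in NICD, *Twist1*). The second PLET1- control had more *Dcn* and *Lum*, 672 and 240 CPM, than any NICD library. Summed markers of mural cells were at 53.4 to 212 CPM in NICD and 69.4 to 102 CPM in controls, of endothelium at 0.262 to 27.5 and 4.91 to 16.4 CPM, of blood cells at 6.87 to 59.6 and 17.5 to 24.8 CPM, and of epithelium at 6358 to 9276 and 7071 to 7556 CPM. Of the mural sums, *Rgs5* alone gave 32.9 to 146 CPM in NICD and 30.4 to 72.9 CPM in controls. The part of these cell types in the NICD values was not tested.

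**Figure D5:**
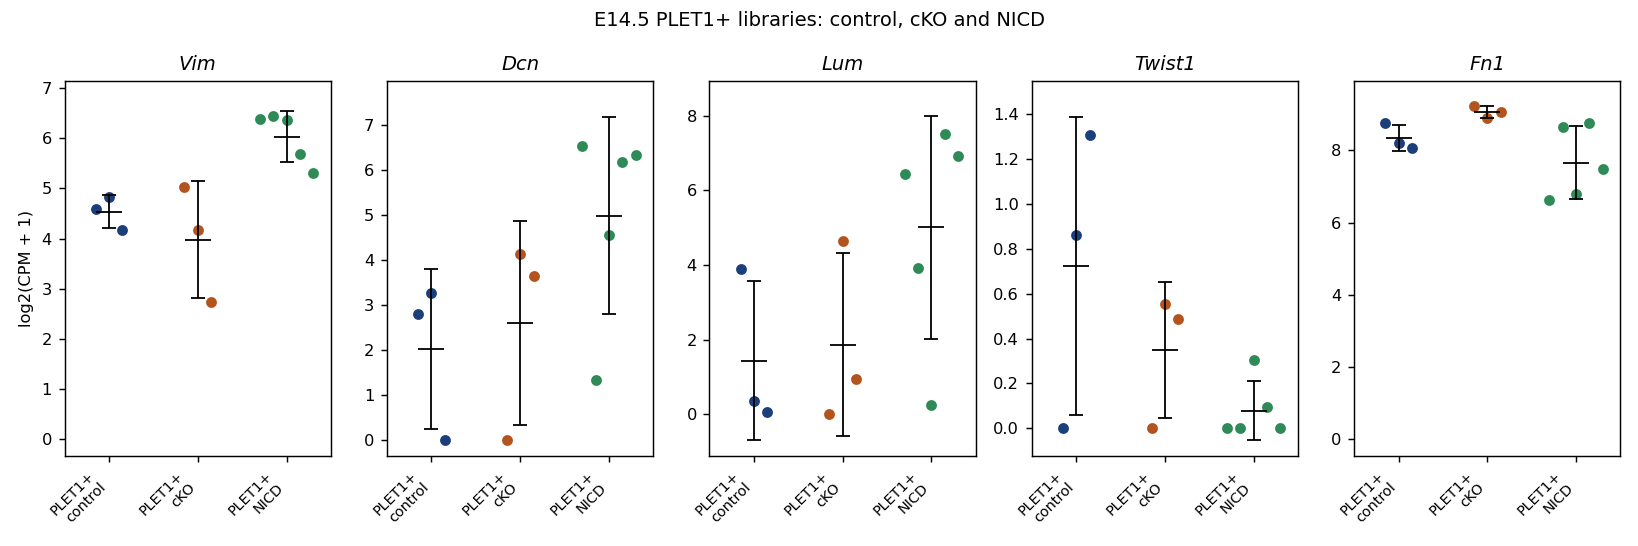
Levels of 5 members as log2(CPM + 1) in E14.5 PLET1+ control (3), cKO (3) and NICD (5) libraries, with 1 point per library and the mean and SD in black. *Vim* points of NICD lie above all controls, *Dcn* and *Lum* spread over most of their range within NICD, and *Twist1* and *Fn1* have their lowest means there.

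A wider list of 47 mesenchymal genes, of which 44 were tested, was set beside the members. Against NICD controls, 3 lay higher in every NICD library, *Fbn1* (fibrillin), *Fstl1* (a secreted follistatin-like protein) and *Foxc1* (a forkhead factor), and 3 lower, *Thbs1* (thrombospondin), *Snai2* (the repressor Slug) and *Cdh11* (a mesenchymal cadherin). Both counts are near the shares over all genes, 5.22% higher and 6.52% lower. *Snai2*, for example, was at 50.6 to 169 CPM in NICD and 196 to 303 CPM in controls, and *Foxc1* at 16.1 to 75.2 and 6.69 to 12.3 CPM. The median log2 fold change of the 32 with more than 3 counts in both groups was -0.39, against 0.0352 over all genes tested and 2.51 over the 7 members so counted. The median of the members follows from how they were chosen.

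By edgeR as fitted here, the wider list had calls with age and none in the other tested comparisons, where alternatives, DESeq2 or the fit without the filter, called up to 1 gene between PLET1 fractions, in the averaged cKO comparison and in the cKO at E12.5, and up to 3 in the cKO of E14.5 PLET1+ cells. Over all genes, in the order of these 4 comparisons, DESeq2 called 209, 202, 318 and 100 of 19140. The fit without the filter called 62, 43, 52 and 10 of 34811. In E14.5 PLET1+ cells 5 of 44 rose and 2 fell by edgeR, with 5.14% of all genes called. Tenascin (*Tnc*) rose from 26.6 ± 22.5 to 190.4 ± 72.9 CPM (log2 fold change 2.98, SE 0.42, adjusted p = 0.0003), *Thbs2* from 8.16 ± 8.03 to 87.8 ± 21.1 CPM (3.78, SE 0.53, adjusted p = 0.00034), the collagen-processing enhancer *Pcolce* from 2.25 ± 3.33 to 20.9 ± 6 CPM (adjusted p = 0.001) and the protease *Fap* from 39.3 ± 10.3 to 96 ± 10.1 CPM (adjusted p = 0.0046). The microfibril gene *Mfap2* fell from 667 ± 258 to 197 ± 67.2 CPM (adjusted p = 0.0049, all from edgeR; SD, n = 6). All 5 were expressed in each E14.5 library of PLET1+ control and cKO cells, unlike *Dcn*, *Lum* or *Postn*. Between PLET1 fractions none of the 44 was called and 6 had an unadjusted p under 0.05, 31 of 44 having lower fitted levels in PLET1+ cells, with a median of -0.53 over the 31 genes that had more than 3 counts in each group. *Snai2* and *Zeb1*, repressors of epithelial genes, were lower and *Fap* higher in every PLET1+ library, beside 0.277% and 0.225% of all genes tested. *Snai2* was at 196 to 341 CPM against 373 to 454 CPM. *Zeb1* separated near the floor, with at most 1 count in PLET1+ libraries and 4 counts, or 0.143 CPM, in the third PLET1- cKO library.

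Partners of the members were present in the same groups of libraries. All 4 PDGF ligand genes and 4 fibronectin receptor genes had more than 3 counts in each group. *Pdgfa*, the ligand of *Pdgfra*, fell with age, from 284 ± 94.1 to 124 ± 66.6 CPM (log2 fold change -1.22, SE 0.27, adjusted p = 0.015 from edgeR; SD, n = 6), and the syndecan *Sdc4* rose from 162 ± 75.8 to 395 ± 218 CPM (1.28, SE 0.34, adjusted p = 0.033). These were 2 of 8 partners, with 5.14% of all genes called, and none was called between PLET1 fractions, where 0 had an unadjusted p under 0.05, or between cKO and control averaged, again with 0. *Pdgfa* was also at 134 to 215 CPM in NICD and 89.1 to 115 CPM in controls, without overlap.

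The genes most like *Pdgfra* over the 23 libraries, by Spearman's rho of log2(CPM + 1) among the genes tested and leaving out members and collagens, were *Nr2f2* (0.76), a nuclear receptor found in many mesenchymal tissues, *Pde3a* (0.71), *Tmcc1* (0.71), *Pla2g7* (0.7) and *Igf2* (0.69). The libraries share batches and depth, and 7 of the 23 values of *Pdgfra* are 0. Among the members, rho was 0.68 for *Pdgfrb* and *Postn*, 0.65 for *Pdgfrb* and *Prrx1* and -0.5 for *Vim* and *Fn1*.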

How the data were processed

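RNA-seq was analysed in 23 libraries of 100 sorted cells, prepared by Smart-seq2 and sequenced as 75 bp pairs. The authors trimmed reads (Trimmomatic 0.32), aligned them (STAR 2.5.1a) and counted fragments per GENCODE vM12 gene on GRCm38 with featureCounts (1.5.1 per the labels, 1.5.0-p3 per the file header), without strand and without reads that map to several places or genes. The deposited values are raw counts. Depth was 20053241 to 92699969 counts per library. Symbols were found for 98.4% of identifiers.

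Groups came from the labels. Counts were fitted with edgeR 4.0.16 (TMM factors, filterByExpr, 19140 genes, quasi-likelihood test, 23 libraries, group means and a batch term within each age), p-values being two-sided and adjusted by Benjamini-Hochberg over all genes tested, and a gene was called at an adjusted p of at most 0.05. Limma-voom (limma 3.58.1) is the test the study used. DESeq2 1.42.0, limma-voom, RLE factors, library totals and scaling to 3 housekeeping genes were tried in its place, as were keeping every gene with a count, requiring 10 counts in 3 libraries with a mean of 50, dropping the batch terms, blocking on replicate number, fitting without NICD, and leaving out each library. Whether libraries overlapped between PLET1 fractions was recomputed under other scalings after the data were seen. Scripts were tested on simulated data. R was 4.3.3.

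The genes and lists were chosen with earlier results of these data known. Named genes are the 9 members, *Rbpj*, markers of cell types, wider-list and partner genes called in a tested comparison (at most the 5 with the smallest adjusted p in each), and the 5 genes most like *Pdgfra*. Other genes of the wider list (those without overlap between groups), *Pdgfa*, *Sdc4*, *Abcc9* and *Rgs5* were chosen after their values were seen.

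Same-numbered E14.5 libraries deviated together from their group means. Over 8467 genes the correlations were 0.26 to 0.46 for PLET1+ cKO and control, 0.29 to 0.56 for PLET1- cKO and control, and 0.36 to 0.53 between PLET1 fractions of 1 genotype. Other-numbered libraries averaged -0.19 to -0.15, which largely follows from taking deviations from means of 3 libraries. Same-numbered libraries thus varied together, and whether through shared embryos, batch or handling was not tested. At E12.5 same-numbered cKO and control libraries did not vary together (-0.093 to 0.046).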

Additional observations from a re-analysis of the deposited data

Results flagged for a closer look

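Within NICD, 1 library stood far from the other 4 for 2 genes, by Dixon's test at the 95% level, which chance alone meets in about 1 of 20 groups. *Pdgfrb* was at 5.78 CPM in replicate 2 and at or below 0.0153 CPM in the others. *Prrx1* was at 6.32 CPM in replicate 1 and at or below 1.1 CPM in the others.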

How the results depend on the processing

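No member was called in the averaged cKO comparison or in any single population under the alternatives run. With age, the number of members called was 1 with DESeq2, 3 without the filter and 1 without NICD libraries. Between PLET1 fractions it was 1 with DESeq2 and 2 without the filter. Leaving out any 1 library gave 0 in each of these. Members without overlap between PLET1 fractions numbered 1 to 2 when 1 library was left out (2 without PLET1- control replicate 2 or PLET1- cKO replicate 3) and 2 with library totals, and between NICD and controls 1 to 3.

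Signs turned in sparse genes and also in *Vim*, which had more than 3 counts in all 23 libraries. The cause was not tested. The cKO log2 fold change of *Dcn* was -1.82 with limma-voom and -0.13 without batch terms, and that of *Lum* -0.32 with limma-voom. The age log2 fold change of *Prrx1* was -0.97 with limma-voom and -3.46 without batch terms, and that of *Dcn* -0.95 with limma-voom. With 1 library left out, cKO values ran from -1.60 to 4.13 for *Prrx1*, -0.95 to 1.61 for *Dcn* and -1.62 to 2.18 for *Lum*, and age values from -0.49 to 0.39 for *Vim*, -1.77 to 0.25 for *Twist1*, -4.63 to 4.12 for *Prrx1*, -1.85 to 3.37 for *Dcn* and -2.55 to 3.90 for *Postn*.

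With the replicate number as a block, the cKO log2 fold change of *Dcn* was -0.65, and no member was called in any comparison. *Pdgfra*, *Pdgfrb* and *Prrx1* were at 0 in 7, 13 and 12 libraries, which limits any fold change of these genes.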
